A study of Homo sapiens with 30 samples.

Results

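The cytosolic chaperonin CCT (also called TRiC) and the mitochondrial chaperonin HSP60 with its lid HSP10 are encoded by 10 genes, which were taken by their symbols from all 3 gene count tables of an RNA-seq study of bladder cancer cells. They are the 8 CCT subunit genes TCP1, CCT2, CCT3, CCT4, CCT5, CCT6A, CCT7 and CCT8, and HSPD1 (HSP60) and HSPE1 (HSP10). All 10 were found in each table, among 60612 listed genes in the RBPMS knockout experiment and 56303 in each of the ANKRD10 overexpression and ANKRD10 knockdown experiments, and all 10 passed the filter on low counts in every comparison. The rule takes them by symbol alone, but the family was chosen with earlier results of these data known.

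CCT is a double ring in which each ring holds one copy of each of its subunits, and it folds actin, tubulin and other cytosolic proteins in an ATP-driven cycle. TCP1, the alpha subunit, gave the complex its name. Prefoldin hands unfolded actin and tubulin to CCT, and phosducin-like proteins assist it as cochaperones. In mitochondria, HSP60 encloses imported proteins in a chamber that HSP10 closes, after the mitochondrial HSP70 (HSPA9) has pulled them through the inner membrane. Chaperonin genes are widely expressed, are abundant in dividing cells and are often counted among the targets of the transcription factor MYC, and HSPD1 and HSPE1 are also known targets of heat shock factor 1.

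The libraries were made from 5637 cells, a human bladder carcinoma line, with 3 libraries in each of 10 groups. KO1 and KO2 carried RBPMS knockouts, and WT1 and WT2, labelled wild type, were their controls, although the figures of the study call its controls sgCtrl and the knockouts sgRBPMS-1 and sgRBPMS-2. RBPMS is an RNA-binding protein that regulates alternative splicing. ANKRD10-1 and ANKRD10-2 overexpressed the longer and the shorter splice variant of the ankyrin repeat gene ANKRD10 and shared the Vector group, and siANKRD10-1 and siANKRD10-2 were knockdowns of these variants by siRNA and shared the siNC group. The study describes the ANKRD10-1 overexpression and the ANKRD10-2 knockdown as made in RBPMS knockout cells, while the labels name 5637 cells alone, so which cells carried them, and which their controls, was not settled. The knockouts were made with a different guide each and expanded from single clones, so a feature of a clone cannot be told apart from the knockout. Nothing says that the 3 libraries of a group came from separate cultures, so p-values measure the spread between these libraries, which may be technical.

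Total counts per library were 44593108 to 69723937 in the knockout table, 31736779 to 47493499 in the overexpression table and 28511029 to 32784584 in the knockdown table. The lowest count of a member in any library was 2616 (CCT2) and the highest 45868 (HSPD1). RBPMS itself was at 14.65 CPM (the count divided by the library total, on a scale common to all libraries) on average in KO1 against 41.0 in WT1 and at 19.99 in KO2 against 43.8 in WT2, and it lay between 3.57 and 6.14 CPM in every library of the other 2 tables, controls included. Summed over both variants, ANKRD10 changed by 0.67 and 0.41 on the log2 scale in ANKRD10-1 and ANKRD10-2, and by −0.24 and −0.25 in siANKRD10-1 and siANKRD10-2 (all with adjusted p-values of at most 0.0159). The changes of ANKRD10 in KO1 and KO2 were larger than those of the knockdowns, at −1.175 and −0.76 (adjusted p = 6.55e-08 and 3.98e-08). The 8 epithelial markers summed to between 2771 and 5445 CPM over all libraries and the 9 markers of immune, endothelial, fibroblast and muscle cells to between 32.9 and 61.2 CPM, mostly COL1A1 (25.8 to 53.65 CPM), with the defining leukocyte marker PTPRC at 0.413 CPM or less and CD3E at 0.126 CPM or less.

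The promoter sequences of these genes were searched for the letters that MYC and heat shock factor 1 are known to bind, since both act on the family. RefSeq windows on GRCh38.p14, from 250 bases before to 50 after a start site, were at hand for 9 of the 10 members, in 12 windows (CCT6A was not matched). HSPD1 and HSPE1 are transcribed away from each other from nearby start sites, and their windows share 204 bases. The only E-box (CACGTG, which reads the same on both strands) among the 12 windows lies in this shared stretch, 22 bases before the start of HSPE1 and 88 before that of HSPD1. The HSPE1 window, chr2:197500129-197500428 on the plus strand, is given with the E-box in capitals.
HSPE1: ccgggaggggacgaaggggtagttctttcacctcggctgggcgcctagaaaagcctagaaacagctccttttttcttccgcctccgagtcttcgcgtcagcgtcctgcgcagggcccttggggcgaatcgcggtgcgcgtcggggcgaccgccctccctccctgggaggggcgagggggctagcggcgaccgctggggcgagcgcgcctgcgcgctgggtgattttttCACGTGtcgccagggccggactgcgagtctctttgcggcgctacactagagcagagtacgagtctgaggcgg

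The heat shock element is built of inverted GAA units (GAANNTTC or TTCNNGAA, each its own reverse complement). Windows of TCP1, CCT2, CCT4 and HSPD1 held matches. Those of CCT5 and HSPE1, which also rose in the overexpression libraries below, held none. HSPD1 and TCP1 are printed because they rose most there, a choice made after the values were seen. Whether the matches had a part in any rise was not tested. A second RefSeq window of HSPD1, whose start lies 539 bases from that of HSPE1, holds 3 overlapping matches, and the TCP1 window holds 1. The HSPD1 matches, at 197500068 to 197500085, also lie upstream of the HSPE1 start (197500379). They fall just outside the HSPE1 window, which begins at 197500129, so its lack of matches depends on the window length. The first 60 bases of the HSPD1 and TCP1 windows are chr2:197500031-197500090 and chr6:159789793-159789852, both on the minus strand, with the matches in capitals.
HSPD1: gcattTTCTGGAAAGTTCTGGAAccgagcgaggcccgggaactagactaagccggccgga
TCP1: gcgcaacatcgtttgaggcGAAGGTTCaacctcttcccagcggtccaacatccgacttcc

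GAANNTTC was found in 3 of the 12 windows (TCP1, CCT2 and HSPD1) and TTCNNGAA in 2 (CCT4 and HSPD1). Of all 35116 promoter windows, 6.77% hold the former, 7.74% the latter and 7.26% an E-box, so a single match is no rare event. The CCAAT box was found on either strand in 4 member windows, those of TCP1, CCT2, CCT3 and CCT8, and in 34.6% of all windows. A match is a match of letters, and binding was not measured.

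The genes lie on 7 chromosomes of GRCh38 at the positions that the overexpression and knockdown tables list, which are those of GENCODE v29. TCP1 is on chromosome 6 (159778498 to 159789749), CCT2 on 12 (69585334 to 69601570), CCT3 on 1 (156308968 to 156367873), CCT5 on 5 (10249921 to 10266412), CCT6A on 7 (56051630 to 56063989) and CCT8 on 21 (29055805 to 29073797). Chromosome 2 holds CCT4 (61868089 to 61888804), CCT7 (73233420 to 73253021), HSPD1 (197486581 to 197516737) and HSPE1 (197499994 to 197503457), and the annotated span of HSPD1 covers HSPE1 on the other strand. Processed copies of these genes listed as pseudogenes took 11.25 to 21.3 CPM in total per library, at most 0.821% of the reads of members and copies together, and reads that fit a copy as well as its gene could have gone to either.

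Per kilobase of exon, CCT8 led in WT1 (137 CPM per kb), WT2 (125.5) and siNC (131), and CCT5 (86.4) and CCT8 (85.9) led in Vector without differing beyond their spread. HSPD1 was second in WT1 and WT2 at 123 and 109.5 CPM per kb, and CCT2 and CCT4 were the 2 lowest in Vector, at 18.3 and 32.9, and in siNC, at 40.5 and 38.2. HSPE1 was lowest in WT1 and WT2 at 46.7 and 42.1 CPM per kb. These orders depend on the length used. With the length of the principal coding transcript, an alternative chosen after the data were seen, CCT3 (149 CPM per kb) took the lead in Vector and CCT4 became the lowest in all 4 control groups.

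**Figure D1:**
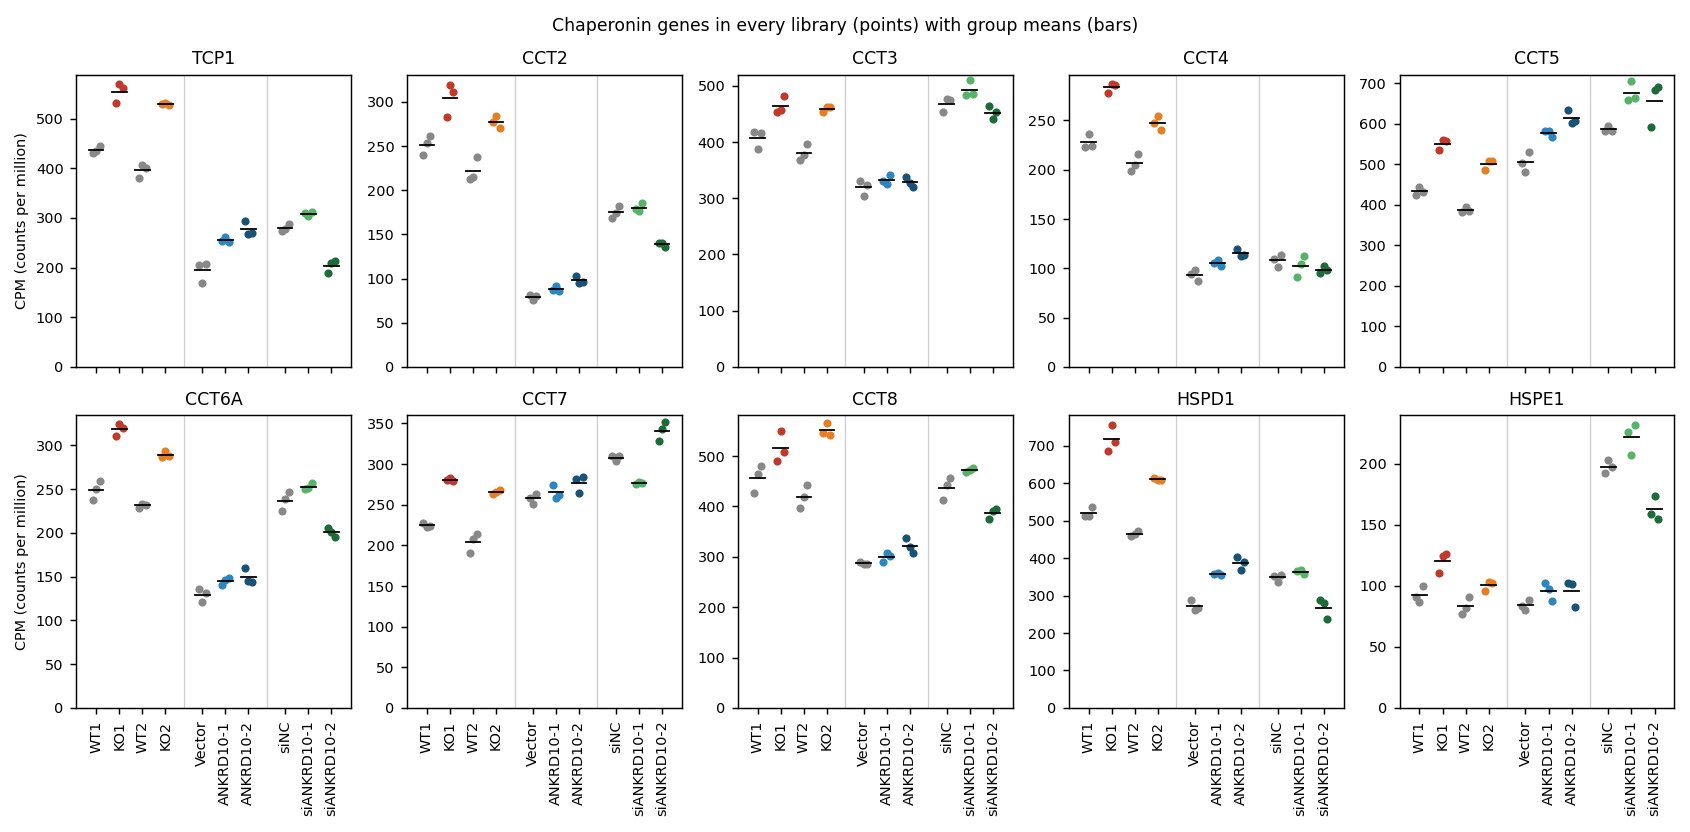
CPM (y axis, from 0) of each member in each of the 30 libraries (points) with the mean of each group of 3 (bars), in panels by gene, with lines parting the 3 tables. The mean of each member was higher in KO1 than in WT1 and in KO2 than in WT2. The means of TCP1, HSPD1 and HSPE1 were lower in siANKRD10-2 than in siNC.

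All 10 chaperonin genes rose in both RBPMS knockouts. HSPD1 was at 511.5, 513 and 537 CPM in WT1 and at 687, 755 and 711 in KO1, and at 459, 463.5 and 472 in WT2 against 614, 608 and 610 in KO2. Every knockout library lay above every control library of its own pair, and the gene rose on the log2 scale by 0.51 (SE 0.05, adjusted p = 2.3e-05) in KO1 and by 0.44 (SE 0.03, adjusted p = 2.01e-07) in KO2. TCP1 was at 430.5, 435 and 446 CPM in WT1 and at 531, 569 and 561 in KO1, and at 380, 406.5 and 401 in WT2 against 530.2, 530.4 and 527 in KO2. The groups did not overlap here either, and the log2 fold changes were 0.39 (SE 0.05, adjusted p = 0.000102) and 0.46 (SE 0.03, adjusted p = 4.07e-07).

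The other subunits moved with TCP1 and within a narrow range. On the log2 scale the median change of the 10 members was 0.38 in KO1, from 0.22 (CCT8) to 0.51 (HSPD1), and 0.39 in KO2, from 0.31 (CCT4) to 0.46 (TCP1). The median over all genes tested was −0.002 in KO1 and −0.02 in KO2. Of all genes tested, 17.9% were higher and 18.2% lower in KO1, and 19.3% were higher and 19.2% lower in KO2. Among genes at least as abundant as the lowest member, a background chosen after the values were seen, 37.2% of 2172 were higher in KO1 and 40.0% of 2610 in KO2. The summed level of the 8 CCT genes went from 2688 ± 57.1 (SD, n = 3) CPM in WT1 to 3272 ± 98.2 in KO1 and from 2446 ± 82.8 in WT2 to 3119 ± 40.5 in KO2. The difference between the knockouts was tested over all 12 libraries, and none of the 10 members passed by edgeR, beside 11.2% of all genes with a higher and 12.1% with a lower change from control in KO1 than in KO2. CCT8 came nearest, at −0.22 (SE 0.08, adjusted p = 0.0541), and was the only member with an unadjusted p under 0.05.

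CCT8 is the only member on chromosome 21, and that chromosome as a whole differed between the knockouts. CCT8 was at 428, 463.5 and 480 CPM in WT1 against 490.1, 550.5 and 508 in KO1, and at 397, 418 and 443 in WT2 against 545, 567 and 541 in KO2. Its groups did not overlap in either pair, and it rose by 0.22 (SE 0.06, adjusted p = 0.0174) in KO1 and by 0.44 (SE 0.04, adjusted p = 4.2e-06) in KO2. The median change of the other 201 genes tested on chromosome 21 was −0.28 in KO1, and that of 209 such genes was 0.15 in KO2. Within 5 Mb of CCT8 the medians were −0.24 (55 genes) and 0.09 (56 genes). Around the other members the chromosome medians lay between −0.04 and 0.02 in both knockouts, and within 5 Mb the largest median was that of the 14 genes near CCT6A, 0.32 in KO1 and 0.14 in KO2. The part of this chromosome-wide difference in the values of CCT8 was not tested. Without WT1 replicate 1 or without WT1 replicate 2, CCT8 no longer passed in KO1, at 0.17 (adjusted p = 0.0739) and 0.23 (adjusted p = 0.0519).

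In the overexpression libraries 7 members rose with ANKRD10-1 and 9 with ANKRD10-2, and none fell. In bulk samples, a change in the number of cells of a kind and a change in RNA per cell cannot be told apart. TCP1 was at 205, 169 and 208 CPM in Vector, at 254, 261 and 252 in ANKRD10-1 and at 293, 268 and 269 in ANKRD10-2. HSPD1 was at 289, 261 and 266.5 CPM in Vector, at 358, 359.5 and 354 in ANKRD10-1 and at 404, 368.4 and 389.8 in ANKRD10-2. Neither gene overlapped with Vector in either group. TCP1 rose by 0.44 (SE 0.06, adjusted p = 0.00021) and 0.59 (SE 0.07, adjusted p = 6.64e-05) on the log2 scale and HSPD1 by 0.44 (SE 0.05, adjusted p = 6.8e-06) and 0.59 (SE 0.05, adjusted p = 3.79e-06).

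The remaining CCT subunits moved less than TCP1, and not alike. With ANKRD10-2, CCT4 (0.39), CCT2 (0.39), CCT5 (0.36), CCT6A (0.29), CCT8 (0.24) and CCT7 (0.18) passed with adjusted p-values of at most 0.0138. CCT3 did not pass in either group, at 0.10 (SE 0.04, adjusted p = 0.197) with ANKRD10-1 and 0.12 (SE 0.05, adjusted p = 0.0999) with ANKRD10-2, and its libraries overlapped, with 330.5, 305 and 323 CPM in Vector, 330.2, 326 and 342 in ANKRD10-1 and 338, 326.5 and 321 in ANKRD10-2. With ANKRD10-1, CCT5 (0.24), CCT4 (0.22), CCT2 (0.20) and CCT6A (0.20) passed, while CCT8 (0.11, adjusted p = 0.151) and CCT7 (0.09, adjusted p = 0.294) did not. The median of the 10 members was 0.21 with ANKRD10-1 and 0.32 with ANKRD10-2, beside −0.004 and −0.005 over all genes tested. Of all genes, 3.5% were higher and 2.81% lower with ANKRD10-1, and 10.7% were higher and 9.25% lower with ANKRD10-2. Among genes at least as abundant as the lowest member the shares higher were 15.2% and 33.9%.

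The count for ANKRD10-1 rests on calls near the threshold. It was 3 with counts scaled to library totals alone (TCP1, CCT5 and HSPD1), a scaling under which all genes called in this comparison split into 418 higher and 937 lower in place of 717 and 574. It was 4 without Vector replicate 2 or without ANKRD10-1 replicate 1, and 3 without ANKRD10-1 replicate 2. In the direct comparison of the variants, CCT2 alone passed, at 0.18 (SE 0.05, adjusted p = 0.0463) higher in ANKRD10-2, where 4.15% of all genes were higher and 3.1% lower. Among genes at least as abundant as the lowest member 11.8% were higher, so that 1 call of 10 is near the background. CCT2 was at 81.9, 75.2 and 80.4 CPM in Vector, 87.55, 91.7 and 86.1 in ANKRD10-1 and 102.9, 95.03 and 96.1 in ANKRD10-2, and without any 1 of the 6 libraries compared it did not pass (adjusted p-values up to 0.161).

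**Figure D2:**
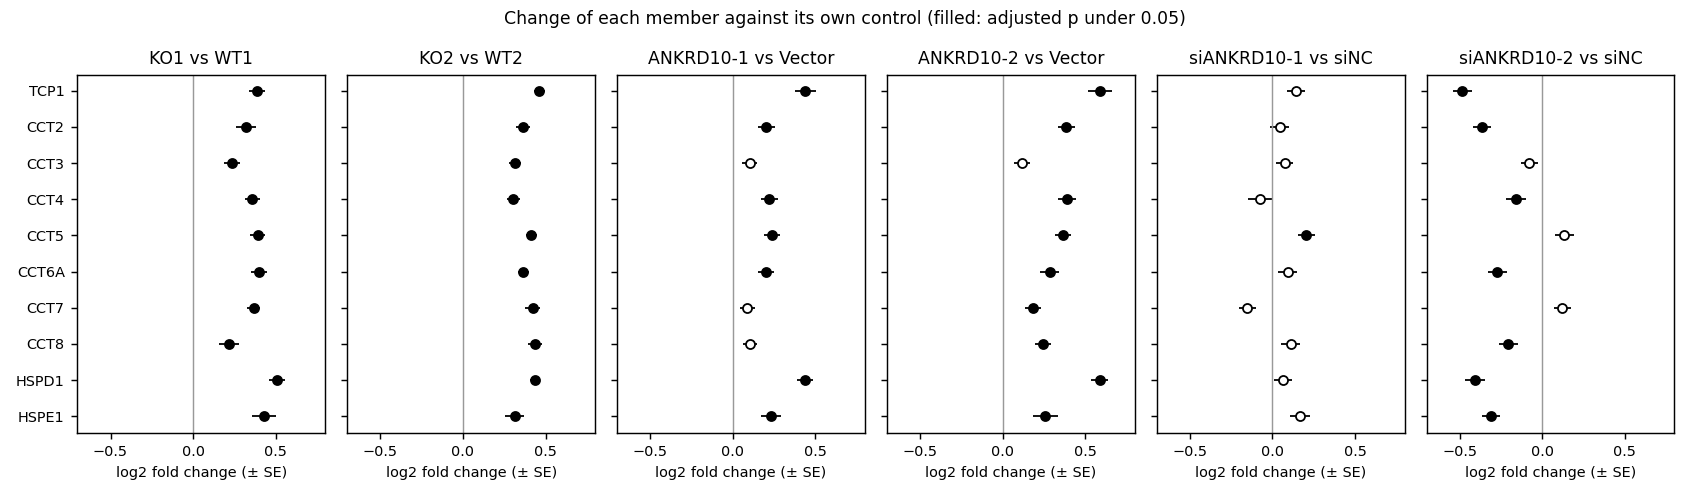
Log2 fold change of each member with its SE (x axis) in each comparison with a control, filled where the adjusted p-value was under 0.05. All 10 were filled to the right of 0 in KO1 and KO2, 7 and 9 in ANKRD10-1 and ANKRD10-2, only CCT5 in siANKRD10-1, and 7 were filled to the left of 0 in siANKRD10-2.

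With siANKRD10-2, 7 members fell and none rose, and with siANKRD10-1, 1 rose and none fell. TCP1 was at 274, 278.5 and 287 CPM in siNC, at 310, 303.5 and 312.5 in siANKRD10-1 and at 189, 209 and 214 in siANKRD10-2. All siANKRD10-2 libraries lay below all siNC libraries, a fall of 0.48 on the log2 scale (SE 0.06, adjusted p = 1.91e-07). HSPD1 was at 352, 337 and 356 CPM in siNC, at 367, 368 and 357 in siANKRD10-1 and at 287, 280 and 237 in siANKRD10-2, and it fell by 0.41 (SE 0.06, adjusted p = 9.45e-06).

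CCT2 (−0.36), HSPE1 (−0.31), CCT6A (−0.27), CCT8 (−0.21) and CCT4 (−0.16) also fell with siANKRD10-2, with adjusted p-values of at most 0.034. CCT4 was the weakest of them, and it overlapped between the groups at 109, 101.2 and 113 CPM in siNC and 95.5, 102.1 and 98.7 in siANKRD10-2. The 3 subunits that did not pass were CCT3 (−0.08, SE 0.05, adjusted p = 0.261), CCT5 (0.13, SE 0.06, adjusted p = 0.0764) and CCT7 (0.12, SE 0.05, adjusted p = 0.0726). CCT7 was at 310.0, 303 and 310.1 CPM in siNC and at 328, 344 and 352 in siANKRD10-2, so its libraries lay on the other side of the control from those of TCP1. CCT5 and CCT7 were near the threshold on the higher side. Both were called higher with library totals alone (0.16 and 0.15, adjusted p = 0.0281 and 0.0227), CCT5 also without the filter and without siANKRD10-2 replicate 1, and CCT7 also by DESeq2 and without siNC replicate 3. CCT4 was no longer called with library totals alone, with all groups in 1 fit, or without siNC replicate 1 or 3 or siANKRD10-2 replicate 1 or 3. Of all genes tested, 17.6% were higher and 18.7% lower with siANKRD10-2, and the median of the members was −0.24 beside 0.001 over all genes. Among genes at least as abundant as the lowest member, 28.0% were lower and 36.1% higher.

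With siANKRD10-1 the median of the members was 0.08. CCT5 passed at 0.21 (SE 0.05, adjusted p = 0.0149), with 582, 596 and 582 CPM in siNC against 660, 705.5 and 663, while 5.08% of all genes were higher and 5.52% lower, and 12.2% higher among genes at least as abundant as the lowest member, so that 1 call of 10 is near the background. That call was lost without siNC replicate 1 or 2 or without siANKRD10-1 replicate 1, and TCP1, HSPE1 and CCT7 were called in addition (CCT7 lower, at −0.15) with the replicate number as a block. CCT7 was at 275, 278 and 277 CPM with siANKRD10-1, below all siNC libraries (−0.15, SE 0.05, adjusted p = 0.0699). Set against siANKRD10-1 directly, siANKRD10-2 was lower in 7 members (TCP1, CCT2, CCT3, CCT6A, CCT8, HSPD1 and HSPE1) and higher in CCT7, beside 18.2% of all genes higher and 18.8% lower. Of genes at least as abundant as the lowest member, 34.7% were higher and 30.3% lower. The largest differences of members between the siRNAs were in TCP1 (−0.62, SE 0.06, adjusted p = 1.18e-08), HSPE1 (−0.47, SE 0.06) and HSPD1 (−0.47, SE 0.06).

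Because each ring holds every CCT subunit once, the share of each gene in the summed CPM of the 8 was compared between groups. In the knockout table the shares moved little. CCT8 went from 17.0% ± 0.65 (SD, n = 3) in WT1 to 15.8% ± 0.587 in KO1 and from 17.1% ± 0.39 in WT2 to 17.7% ± 0.238 in KO2, in opposite directions. TCP1 went from 16.3% ± 0.118 (SD, n = 3) in WT1 to 16.9% ± 0.102 in KO1 and from 16.2% ± 0.327 in WT2 to 17.0% ± 0.207 in KO2. These small shifts of TCP1 came without overlap of libraries in either pair. So did those of CCT5 and CCT6A in KO1 and of CCT3 and CCT4 in KO2. In the knockdown table TCP1 went from 10.8% ± 0.0742 in siNC to 8.225% ± 0.2705 in siANKRD10-2, and CCT7 from 11.8% ± 0.331 to 13.8% ± 0.096, with no overlap of libraries in either gene. CCT5, the largest share there, went from 22.6% ± 0.554 to 26.4% ± 1.38. Thus the siANKRD10-2 libraries held fewer TCP1 reads for each read of CCT5 than siNC did, at a ratio of 0.3115 ± 0.00675 against 0.477 ± 0.014. In the overexpression table the ratio moved the other way, from 0.385 ± 0.0296 in Vector to 0.443 ± 0.00628 in ANKRD10-1 and 0.45 ± 0.0105 in ANKRD10-2. With 3 libraries against 3, an exact permutation test of such a ratio cannot give a p-value under 0.1, and none was used. The shares are of reads and depend on gene length, and subunit proteins were not measured.

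**Figure D3:**
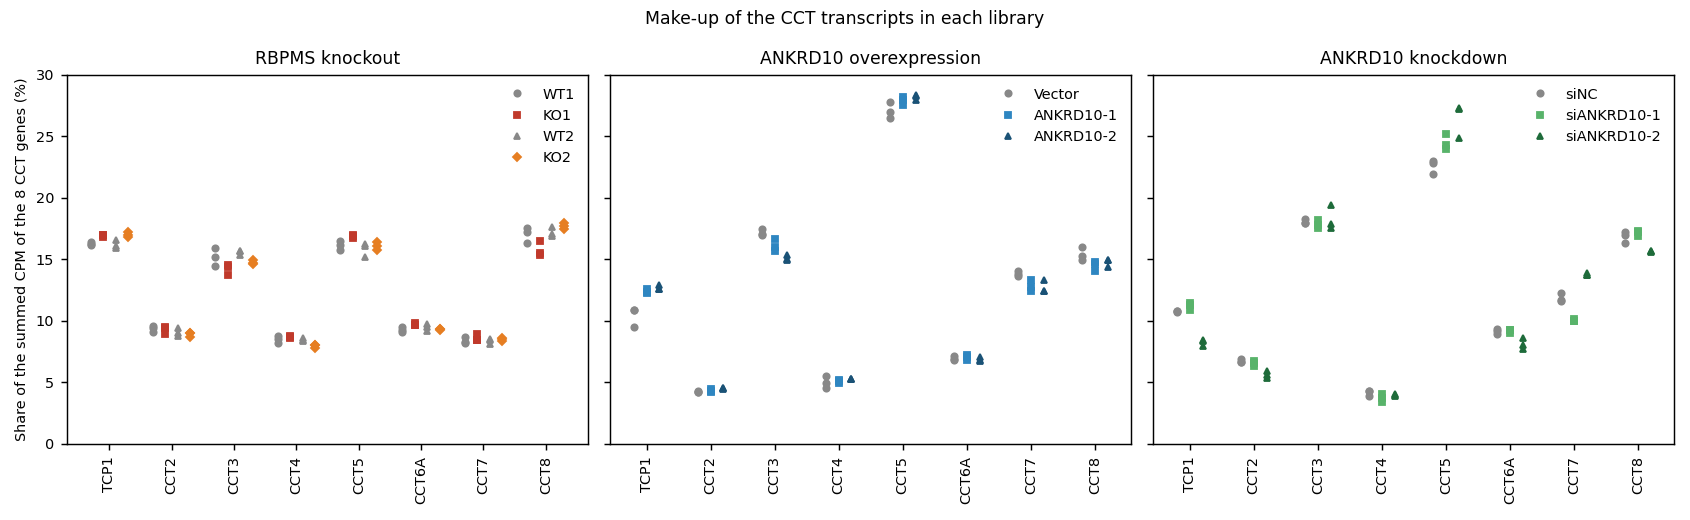
Share of each CCT gene in the summed CPM of the 8 genes (y axis, percent) in each library (points), by table. In the knockout table knockouts and controls lie close together for every gene, although TCP1 does not overlap in either pair. In the knockdown table the siANKRD10-2 libraries lie below siNC for TCP1 (8.225% against 10.8% on average) and above it for CCT7 (13.8% against 11.8%).

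Across libraries the 8 CCT genes followed each other in the knockout and overexpression tables and less so in the knockdown table. The 28 pairs of genes had Pearson correlations of log2 CPM from 0.82 to 0.99 (median 0.96) over the 12 knockout libraries and from 0.675 to 0.98 (median 0.895) over the 9 overexpression libraries. Over the 9 knockdown libraries they ran from −0.84 to 0.98 with a median of 0.41, and all 7 pairs with CCT7 were negative. The libraries of a table share their groups, controls and treatments, so the points are not independent.

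HSPE1 passed in the same comparisons with a control as HSPD1, and in the same direction. It was at 90.8, 86.4 and 99.9 CPM in WT1 against 111, 124.5 and 126.5 in KO1, and at 77.2, 82.1 and 90.6 in WT2 against between 96.1 and 103.2 in KO2. Its rises of 0.43 (SE 0.07, adjusted p = 0.000881) and 0.31 (SE 0.06, adjusted p = 0.00117) came without overlap. With ANKRD10-1 (0.23, SE 0.06, adjusted p = 0.032) and ANKRD10-2 (0.26, SE 0.08, adjusted p = 0.027) it passed although the libraries overlapped, at 83.9, 80.4 and 88.6 CPM in Vector, 102.6, 97.7 and 87.2 in ANKRD10-1 and 102.3, 101.6 and 82.6 in ANKRD10-2.

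Reads of HSPE1 can also be assigned to HSPE1-MOB4, an annotated readthrough of HSPE1 into the next gene. HSPE1-MOB4 held between 0.0572% and 3.3% of the count of HSPE1 in the knockout table. The share was 95.3% to 99.9% with the overexpressions and 99.8% to 103.4% with the siRNAs and siNC, so the HSPE1 level cannot be set side by side across the tables. Where the rows were nearly equal, HSPE1-MOB4 gave 0.21 (adjusted p = 0.0562) with ANKRD10-1, 0.23 (adjusted p = 0.0566) with ANKRD10-2 and −0.34 (adjusted p = 2.04e-05) with siANKRD10-2, so the fall of HSPE1 passed on either row and its rise with overexpression on the HSPE1 row alone.

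The partners of the chaperonins were taken from 8 lists of genes. Their counts stand beside the shares of all genes given above, 17.9% and 19.3% higher and 18.2% and 19.2% lower in KO1 and KO2, 3.5% and 10.7% higher and 2.81% and 9.25% lower with ANKRD10-1 and ANKRD10-2, and 5.08% and 17.6% higher and 5.52% and 18.7% lower with siANKRD10-1 and siANKRD10-2. Among genes at least as abundant as the lowest member, 37.2% and 40.0% were higher and 18.6% and 21.5% lower in KO1 and KO2. With ANKRD10-1 and ANKRD10-2 these shares were 15.2% and 33.9% higher and 5.28% and 10.7% lower. With siANKRD10-1 and siANKRD10-2 they were 12.2% and 36.1% higher and 10.8% and 28.0% lower. Of the 9 prefoldin genes, all tested, 4 were higher and 1 lower in KO1, 5 higher in KO2, 2 and 4 higher with ANKRD10-1 and ANKRD10-2, 2 higher with siANKRD10-1 and 5 lower with siANKRD10-2. PFDN2, a prefoldin subunit, passed in 5 of the 6 comparisons, at 0.31, 0.52, 0.27, 0.50 and 0.27, and was at 0.09 without passing in siANKRD10-2. PFDN4 was at 0.33 and 0.27 in the knockouts, 0.31 with ANKRD10-2 and −0.27 with siANKRD10-2, while URI1, a prefoldin-like protein, fell by 0.32 in KO1 and rose by 0.15 in KO2. PDRG1, another prefoldin-like gene, rose by 0.30 with each overexpression and had the largest fall of the list with siANKRD10-2, 0.66. PFDN1 fell by 0.30 there, and PFDN6 rose by 0.30 in KO1 and by 0.32 with siANKRD10-1.

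Of the 3 phosducin-like cochaperones, PDCL3 rose by 0.49 in both knockouts and TXNDC9 by 0.28 and 0.24, while PDCL fell by 0.40 in KO2. None of the 3 passed with either overexpression or with siANKRD10-1, and TXNDC9 fell by 0.23 with siANKRD10-2. The 4 chaperonin-like genes (CCT6B, the testis paralog of CCT6A, and MKKS, BBS10 and BBS12, relatives of CCT that act in cilia) held 2 calls in the 6 comparisons, a fall of BBS12 by 0.87 in KO2 and a rise of MKKS by 0.19 with siANKRD10-1. BBS12 was at a low level, 2.17 CPM on average in KO2 against 4.06 in WT2.

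Of the 14 actin and tubulin genes, the main clients of CCT, 7 were higher and 2 lower in KO1, and 10 higher and 1 lower in KO2. Beside these counts stand 17.9% and 19.3% of all genes higher and 37.2% and 40.0% of genes at least as abundant as the lowest member. With ANKRD10-1 and ANKRD10-2, 2 and 4 were higher. With siANKRD10-1, 2 were higher, and with siANKRD10-2, 2 were higher and 7 lower. ACTG1, cytoplasmic gamma actin, rose by 0.44, 0.56, 0.24 and 0.54 in the knockouts and overexpressions, and ACTB, beta actin, by 0.57 in KO2, 0.19 with ANKRD10-1 and 0.32 with ANKRD10-2. Tubulins did not move as 1 group: TUBB6 rose by 1.35 and 0.65 and TUBA4A by 1.08 and 0.76 in KO1 and KO2, but TUBA1A fell by 1.49 in KO1 and rose by 0.60 in KO2, and TUBB3 fell by 0.42 in KO1 and rose by 1.30 in KO2. The difference between the knockouts passed for TUBA1A (−2.09) and TUBB3 (−1.72). With siANKRD10-2, TUBA1A rose by 0.86 and TUBB3 by 0.33, while TUBB2A (−0.41) and TUBB2B (−0.34) fell. TUBB4A fell by 1.11 in KO2, but at a low level, 0.43 CPM on average against 0.95 in WT2. Tubulin genes are close in sequence, and reads that fit several could have gone to any of them.

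Among the 5 tubulin folding cofactors, which take tubulin on from CCT, 1 was higher and 1 lower in each knockout, which is near the 17.9% to 19.3% higher and 18.2% to 19.2% lower of all genes. These were TBCA (0.28) and TBCB (−0.51) in KO1 and TBCB (0.23) and TBCD (−0.12) in KO2. None passed with either overexpression or with siANKRD10-1, and with siANKRD10-2, TBCD rose by 0.16 and TBCC, TBCE and TBCB fell by 0.33, 0.25 and 0.17.

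In mitochondria, the HSP70 system that feeds HSP60 had members that rose in the knockouts and overexpressions. Of its 7 genes (with TRAP1, the mitochondrial HSP90), 6 were higher in KO1, 3 in KO2, 4 with ANKRD10-1, 3 with ANKRD10-2 and 1 with siANKRD10-1, and 4 were lower with siANKRD10-2. The 3 of 7 in KO2 and with ANKRD10-2 are near the 40.0% and 33.9% higher among genes at least as abundant as the lowest member. HSPA9, the mitochondrial HSP70, was at 0.48, 0.31, 0.27 and 0.47 in the knockouts and overexpressions and at −0.16 with siANKRD10-2, all passing. GRPEL1, its nucleotide exchange factor, rose by 0.71 and 0.48 in the knockouts and by 0.25 and 0.32 with overexpression. TRAP1 rose by 0.73 and 0.35 in the knockouts, 0.19 with ANKRD10-1 and 0.18 with siANKRD10-1, and fell by 0.19 with siANKRD10-2. GRPEL2 rose by 0.28 in KO1, 0.32 with ANKRD10-1 and 0.44 with ANKRD10-2 and fell by 0.32 with siANKRD10-2, where DNAJA3, the J protein of HSPA9, fell by 0.35. The 7 mitochondrial protease genes did not go 1 way, with 3 higher and 2 lower in KO1 and 4 higher in KO2. Beside these counts stand 17.9% and 19.3% of all genes higher and 37.2% and 40.0% of genes at least as abundant as the lowest member. With each overexpression and with siANKRD10-1, 1 protease gene was higher, and with siANKRD10-2, 2 were higher and 1 lower. CLPP and LONP1, proteases of the matrix, fell by 0.43 and 0.25 in KO1 and rose by 0.43 and 0.15 in KO2, CLPX rose by 0.22 and 0.20 with the overexpressions, and LONP1 rose by 0.38 with siANKRD10-1. In KO1, HTRA2 (0.40) and AFG3L2 (0.33) rose, and with siANKRD10-2, SPG7 (0.54) and LONP1 (0.23) rose and CLPX (−0.23) fell.

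Of the 12 cytosolic HSP70 and HSP90 chaperone genes, 10 were higher and none lower with ANKRD10-1 and with ANKRD10-2, 6 were higher and 2 lower in KO1, 9 higher and 1 lower in KO2, none passed with siANKRD10-1, and 3 were higher and 5 lower with siANKRD10-2. The heat-inducible HSP70 genes HSPA1A and HSPA1B, which are near-identical copies whose reads cannot be told apart with certainty, rose by 1.75 and 1.79 with ANKRD10-1 and by 1.97 and 2.00 with ANKRD10-2, and DNAJB1, their heat-inducible cochaperone, by 1.33 and 1.59. In KO1 the same genes were at −0.17, −0.03 and −0.22, of which DNAJB1 passed, and in KO2 at 0.32, 0.30 and 0.23, of which HSPA1B and DNAJB1 passed. With siANKRD10-2, HSPA1A fell by 0.33 and HSPA1B by 0.43. The constitutive HSP70 gene HSPA8 rose by 0.37, 0.63, 0.41 and 0.62 in the knockouts and overexpressions and fell by 0.29 with siANKRD10-2, and STIP1, which links HSP70 to HSP90, rose by 0.27, 0.33, 0.28 and 0.44 and fell by 0.28. HSP90AB1 rose by 0.47, 0.58, 0.36 and 0.48 and HSP90AA1 by 0.21, 0.44, 0.66 and 0.80, and both also rose with siANKRD10-2, by 0.15 and 0.43. DNAJA1, a J protein of HSP70, rose by 0.23 in KO1 and 0.27 with siANKRD10-2 and fell by 0.34 in KO2, and HSF2, a heat shock factor, fell by 0.28 in KO1.

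MYC, whose mRNA encodes the transcription factor that the study links to ANKRD10, was at 139 CPM in WT1 and 181 in KO1, at 146 in WT2 and 158 in KO2, at 52.4 in Vector, 56.8 in ANKRD10-1 and 72.8 in ANKRD10-2, and at 46.4 in siNC, 49.1 in siANKRD10-1 and 31.3 in siANKRD10-2 on average. It rose in KO1 (0.42, SE 0.05, adjusted p = 7.32e-05), KO2 (0.17, SE 0.05, adjusted p = 0.032) and ANKRD10-2 (0.55, SE 0.06, adjusted p = 2.16e-05), and fell with siANKRD10-2 (−0.60, SE 0.06, adjusted p = 3.72e-08). Its libraries overlapped between KO2 (152.9, 153.3 and 168.9 CPM) and WT2 (145.7, 154.9 and 136.1). The difference between the knockouts passed, with the larger rise in KO1 (0.25, SE 0.08, adjusted p = 0.028). MYC did not pass with ANKRD10-1 (0.16, adjusted p = 0.0914), although its libraries there lay above those of Vector without overlap. With siANKRD10-1 (0.08, adjusted p = 0.469) it did not pass either, and the libraries overlapped. Whether MYC had a part in the chaperonin values was not tested.

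The genes whose pattern was most like that of the members were found among 13725 genes tested in all 3 tables, by the smallest of their 3 Pearson correlations with the mean log2 CPM of the members over the 12, 9 and 9 libraries. For the 8 CCT genes these were ATG3 (0.96), HSPA8 (0.96), GNL3 (0.94), HSPA9 (0.94) and NME1 (0.94). For HSPD1 and HSPE1 they were MORF4L2 (0.95), STIP1 (0.94), GNL3 (0.94), NME2 (0.94) and PTGES3 (0.93). Thus 3 of the 9 genes, HSPA8, HSPA9 and STIP1, are chaperones of the lists above, and PTGES3 encodes p23, a cochaperone of HSP90. NME1 and NME2 encode nucleoside diphosphate kinases, GNL3 a nucleolar GTP-binding protein and ATG3 an enzyme of autophagy. NME1 went from 0.69 and 0.45 in KO1 and KO2 to 0.24 and 0.61 with ANKRD10-1 and ANKRD10-2 and −0.41 with siANKRD10-2, and GNL3 from 0.51 and 0.32 to 0.37, 0.51 and −0.26, all passing. Both genes were picked by their pattern in these same libraries, so directions like those of the members follow from the choice. NME1 and NME2 are neighbours with similar sequences, and reads could have been shared between them.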

How the data were processed

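Stranded poly(A) RNA-seq libraries were made from 5637 cells. Per the labels, the authors trimmed reads with Trimmomatic 0.36 and counted them on GRCh38 with featureCounts of Subread 1.5.1 (the study's methods name HISAT2 and StringTie), and the deposited tables hold raw read counts per gene for each library. The strand setting of the counting was not given in the sources used here. CPM is the count divided by the library total, on one common scale. Genes were kept by filterByExpr (minimum count 10, minimum total 15), scaled by TMM and tested by edgeR 4.0.16's quasi-likelihood test in R 4.3.3, with only the libraries of the groups compared and Benjamini-Hochberg adjustment over all genes tested (threshold 0.05), after the scripts were tested on simulated data. Alternatives were RLE scaling, library totals alone, no filter, DESeq2 1.42.0, all groups in one fit, all WT libraries as control, a replicate block and each library left out. Same-numbered replicates deviated together with correlations from −0.0283 to 0.0644 and were not treated as pairs. No 2 libraries held identical counts, and replicates differed by more than sampling noise (chi-square per gene at least 3.92). The members and lists were chosen with earlier results of these data known. Named were the members, RBPMS, ANKRD10 and MYC, in each list the 2 largest rises and 2 largest falls per control comparison and genes passing in at least 5 of 6, and the 5 genes most like each chaperonin. A listed symbol on several rows was read from the row with most counts. Amino acid sequences were not used here.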

Additional observations from a re-analysis of the deposited data

Results flagged for a closer look

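Effects of the siRNAs against the 2 variants differed in 8 members by the direct test of siANKRD10-2 against siANKRD10-1. By this test 18.2% of all genes were higher and 18.8% lower. The shares were 34.7% and 30.3% among genes at least as abundant as the lowest member. TCP1 (−0.62), CCT2 (−0.40), CCT3 (−0.15), CCT6A (−0.36), CCT8 (−0.31), HSPD1 (−0.47) and HSPE1 (−0.47) were lower on the log2 scale with siANKRD10-2, and CCT7 was higher (0.28). Between the overexpressions, CCT2 was higher with ANKRD10-2 than with ANKRD10-1 by 0.18. This 1 call of 10 is near the background, 11.8% higher among genes at least as abundant as the lowest member. It was lost whichever library was left out. Groups of 3 libraries are too small for a test of single libraries that stand apart.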

How the results depend on the processing

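The counts of members called in KO1 (9 to 10), KO2 (10) and siANKRD10-2 (6 to 8) and with ANKRD10-2 (7 to 9) stayed within 1.5 times of those reported under every alternative run. With siANKRD10-2 the direction was not kept for all: 2 were higher and 6 lower with library totals alone, 1 higher and 7 lower without the filter and by DESeq2, and 1 higher and 6 lower without siNC replicate 3 or siANKRD10-2 replicate 1 (0 and 7 as reported). With library totals alone, 3 members were called with ANKRD10-1, 1 in the difference between the knockouts and 0 between the overexpressions. All called genes then split into 418 higher and 937 lower with ANKRD10-1, 1204 and 3152 with ANKRD10-2 (2151 and 1866 as reported), and 557 and 894 between the overexpressions (833 and 622 as reported), and CCT3 (−0.0183) and HSPE1 (−0.00615) changed sign between the overexpressions. DESeq2 called 2 members with siANKRD10-1, 1 in the difference between the knockouts (CCT8, −0.23) and 4 between the overexpressions, and without the filter 0 were called there. With a replicate block, 4 members were called with siANKRD10-1 and 1 (CCT8, −0.22, adjusted p = 0.0133) in the difference between the knockouts, and CCT3 was lost between the siRNAs (adjusted p = 0.0665), while the samples share only a number. With each library left out, the counts ranged from 3 to 7 with ANKRD10-1, 0 to 2 with siANKRD10-1, 0 to 1 in the difference between the knockouts (1 without WT1 replicate 1, KO1 replicate 2 or WT2 replicate 3), 0 to 0 between the overexpressions and 7 to 8 between the siRNAs. Values near 0 changed sign in these fits for CCT4 with siANKRD10-1 (−0.15 to 0.00626), for CCT2 (−0.10 to 0.0124), CCT5 (−0.0536 to 0.003875) and CCT6A (−0.0145 to 0.0654) between the knockouts, and for CCT3 (−0.008155 to 0.0352) and HSPE1 (−0.043 to 0.12) between the overexpressions. TMM-scaled CPM moved 13 of the 100 group means by more than 1 SD. Causes were not tested.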
